A study of Mus musculus with 24 samples.

Results

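The genes described here encode the enzymes that add and oxidise the methyl group of cytosine in DNA, together with partners that guide or modify them. The list was fixed by gene symbol and holds 10 genes, Dnmt1, Dnmt3a, Dnmt3b, Uhrf1, Tet1, Tet2, Tet3, Cxxc4, Cxxc5 and Ogt, of 37991 gene identifiers in the count files. All 10 symbols matched 1 identifier each. They were read in the cerebellum of C57BL/6J males, an inbred mouse strain, at 7 weeks (2 libraries) and 79 weeks of age (2 libraries), with no treatment or transgene named in the labels. The sample titles number replicates apart from technical replicates, but no label states whether libraries of the same age are from different animals, so the p-values reflect variation between libraries that could be technical. The series compared the ages in 24 samples, of which the 20 genomic ones (methylation and hydroxymethylation of cerebellum and cortex DNA) are not analysed here.

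Dnmt1 copies methylation onto the new strand after replication, and Uhrf1 brings it to half-methylated sites. Dnmt3a and Dnmt3b methylate unmethylated DNA, and in neurons Dnmt3a also methylates cytosines outside CpG after birth. Tet dioxygenases oxidise methylcytosine to hydroxymethylcytosine, which is abundant in neurons, and then to forms that base excision repair can remove. Tet1 and Tet3 can carry their own CXXC zinc finger, a domain that binds unmethylated CpG. Tet2 lacks one and can bind the CXXC proteins Cxxc4 and Cxxc5. Counts per gene do not show whether the Tet1 and Tet3 transcripts read here encode the domain. Ogt attaches the sugar O-GlcNAc to many nuclear proteins and binds Tet2 and Tet3.

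With age the list divided. Dnmt3a, Tet1 and Tet3 fell by 0.37, 0.41 and 0.36 on the log2 scale, to between 0.75 and 0.78 of their level at 7 weeks, while Cxxc4 rose 1.25-fold. Tet2 stood 1.24-fold higher without passing the test. With Tet1 and Tet3 lower, its share of the reads of the Tet family went from 23.6% ± 0.81 to 33.0% ± 1.30 (SD, n = 2 per age). Dnmt1, Dnmt3b, Cxxc5 and Ogt did not pass the test, and Uhrf1 had too few reads to enter it. The test was edgeR's quasi-likelihood test over all 15292 genes that passed a low-count filter, with a Benjamini-Hochberg adjusted p of 0.05 as threshold. It called 8.84% of those genes, 715 lower (4.68%) and 637 higher (4.17%) at 79 weeks, where library size as the only scaling gave 484 lower and 901 higher. Of the 9 genes of the list that were tested it called 4, of which 3 were lower and 1 higher, under either scaling. The list was chosen with earlier results of these data known, so this count is no test against the share over all genes. The libraries of the 2 ages did not overlap in 7 of the 9, and in 57.7% of all tested genes.

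**Figure D1:**
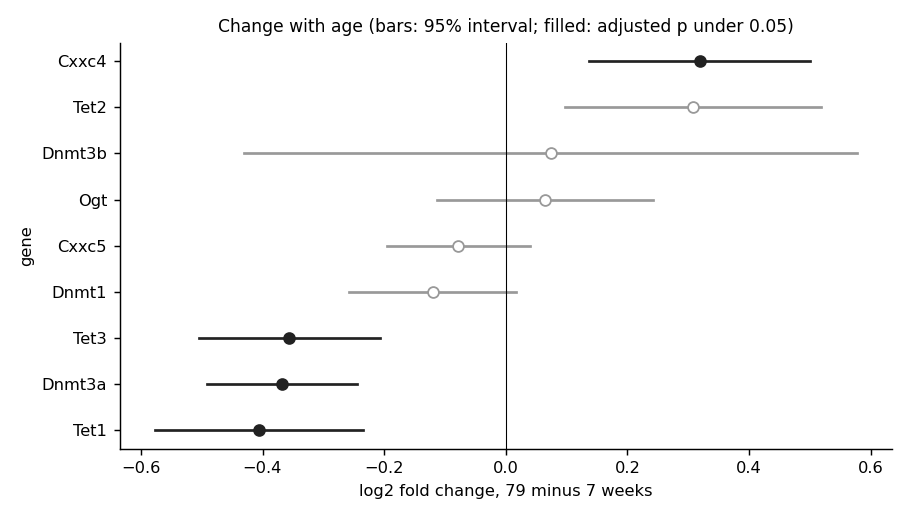
Log2 fold change, 79 minus 7 weeks, of the 9 tested genes, with the 95% interval from edgeR's fit; filled points passed an adjusted p of 0.05. Tet1, Dnmt3a and Tet3 lie between -0.41 and -0.36, Cxxc4 and Tet2 at 0.32 and 0.31, and the intervals of Dnmt1, Cxxc5, Ogt and Dnmt3b include 0.

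Gene counts per library were 16367656 and 21124608 at 7 weeks and 18901921 and 22826993 at 79 weeks. A count of 0 would allow up to 0.187 CPM (reads scaled to library size by TMM) in the shallowest library, and this limit and the binomial and Poisson intervals cover counting error only, whereas intervals of fold changes come from edgeR's fit over libraries. All 8 granule neuron and all 8 Purkinje cell markers had reads, as the label cerebellum requires. Of those granule neuron markers 7 were called lower and 0 higher, and of the Purkinje cell markers 5 were called lower and 0 higher. Of 8 microglial markers 6 were called higher and 0 lower. In 79-week replicate 1 the 8 choroid plexus markers summed to 6706 CPM, against 158 to 172 CPM in the other libraries. The call count depended on the 7-week libraries: with replicate 1 of that age left out, 0 genes passed in edgeR (2610 had an unadjusted p below 0.05), and with replicate 2 left out 175 passed in place of 1352. Leaving out 79-week replicate 2 gave 2425.

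The sequence around the start site is shown for the 4 called genes and for Tet2, whose share of its family differed between ages, because it is CpG that Dnmt enzymes methylate and CXXC domains read. Each window runs from 250 bases before to 50 bases after an annotated start, from RefSeq in build GRCm38.p6, with every CG in capitals. That build is later than the mm9 build of the count files, and the windows were matched by gene symbol. For Dnmt3a, which has 3 windows, the first listed is shown.
Dnmt3a, chr12:3806730-3807029, plus strand: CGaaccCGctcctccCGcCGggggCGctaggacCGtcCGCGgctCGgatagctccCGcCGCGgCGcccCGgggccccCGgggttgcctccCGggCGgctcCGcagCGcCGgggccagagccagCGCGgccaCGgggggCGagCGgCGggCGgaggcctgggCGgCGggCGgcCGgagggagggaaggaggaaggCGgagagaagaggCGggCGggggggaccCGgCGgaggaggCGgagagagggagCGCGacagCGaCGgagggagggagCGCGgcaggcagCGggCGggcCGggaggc
Tet1, chr10:62887275-62887574, minus strand: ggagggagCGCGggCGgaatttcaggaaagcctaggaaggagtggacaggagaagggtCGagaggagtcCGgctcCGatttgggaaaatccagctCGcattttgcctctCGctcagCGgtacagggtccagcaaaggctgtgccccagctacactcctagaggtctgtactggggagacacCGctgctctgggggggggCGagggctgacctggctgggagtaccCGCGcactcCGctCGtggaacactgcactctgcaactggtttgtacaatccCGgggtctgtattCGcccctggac
Tet3, chr6:83441629-83441928, minus strand: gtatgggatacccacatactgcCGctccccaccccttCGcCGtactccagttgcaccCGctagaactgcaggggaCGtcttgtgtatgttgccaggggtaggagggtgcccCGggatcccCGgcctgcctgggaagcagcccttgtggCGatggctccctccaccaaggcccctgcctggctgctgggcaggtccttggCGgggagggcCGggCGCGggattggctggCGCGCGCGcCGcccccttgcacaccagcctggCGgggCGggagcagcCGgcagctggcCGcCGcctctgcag
Tet2, chr3:133544341-133544640, minus strand: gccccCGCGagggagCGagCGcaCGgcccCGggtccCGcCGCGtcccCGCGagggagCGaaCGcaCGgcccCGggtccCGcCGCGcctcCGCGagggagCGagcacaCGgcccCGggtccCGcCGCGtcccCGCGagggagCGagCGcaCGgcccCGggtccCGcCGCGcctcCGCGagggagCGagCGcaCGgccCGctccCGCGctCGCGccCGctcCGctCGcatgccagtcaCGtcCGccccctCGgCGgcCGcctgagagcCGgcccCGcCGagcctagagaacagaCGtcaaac
Cxxc4, chr3:134236245-134236544, plus strand: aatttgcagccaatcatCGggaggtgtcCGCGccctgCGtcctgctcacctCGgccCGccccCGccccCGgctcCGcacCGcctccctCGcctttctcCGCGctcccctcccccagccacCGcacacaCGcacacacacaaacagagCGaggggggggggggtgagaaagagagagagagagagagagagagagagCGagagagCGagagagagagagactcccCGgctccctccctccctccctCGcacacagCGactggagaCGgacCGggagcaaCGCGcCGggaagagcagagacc

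All 5 windows were richer in CG than the median of 7 among 32851 windows of 300 bases. The Tet2 window held 57 CG, a number that 0.152% of all windows reach, and that of Dnmt3a held 46, which 1.65% reach. Cxxc4 had 26 (16.9% of windows hold as many or more), Tet3 22 (23.1%) and Tet1 17 (31.4%). The third Dnmt3a window, at a start inside the gene, held 18 (29.7%). Counts per gene do not separate the starts of a gene. The letters GGGCGG, read on both strands, occurred 6 times in the Dnmt3a window, 2 times each in those of Tet3 and Cxxc4, and 1 time each in those of Tet1 and Tet2, and 35.7% of all windows hold them. The letters CCAAT occurred 1 time each in the Tet3 and Cxxc4 windows (37.4% of windows). The letters CACGTG were searched on both strands as well and were in 0 of the 5 windows shown (7.15% of all windows hold them), and they occurred 1 time in the third Dnmt3a window. TATAAA was in 0 of the 5 (13.6%). A match of GGGCGG or CACGTG holds a CG and so overlaps the capitals.

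Dnmt3a (ENSMUSG00000020661, chromosome 12), the de novo methyltransferase, stood at 229.4 and 214.7 CPM in the 7-week libraries and at 171.4 and 172.5 CPM in the 79-week libraries. Both aged libraries lay below both young ones and were nearly equal. It fell from 222 ± 10.4 to 172 ± 0.78 CPM (SD, n = 2 per age), a log2 fold change of -0.37 (SE 0.05, 95% interval -0.49 to -0.25, edgeR adjusted p = 0.0108). The call ended without 7-week replicate 1, where the fold change was -0.32 (adjusted p = 0.118), and held without each of the other libraries. RefSeq places 2 noncoding genes over it, one of them the opposite-strand transcript Dnmt3aos, and since the strand setting of the counting is not given, reads of the pair cannot be told apart. Noncoding genes, miRNA genes included, also lie over Dnmt1, Tet1, Tet3, Cxxc4 and Cxxc5 in RefSeq.

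Dnmt1 (ENSMUSG00000004099, chromosome 9), the maintenance methyltransferase, was at 130.4 and 120.5 CPM at 7 weeks and at 117.3 and 113.4 CPM at 79 weeks. The ages did not overlap, but the gap between them was smaller than the gap between the 7-week libraries. Its log2 fold change of -0.12 did not pass the test (95% interval -0.26 to 0.02, edgeR adjusted p = 0.241), so that levels from 0.836 to 1.01 times the young level lie within the interval. Dnmt3b (ENSMUSG00000027478, chromosome 2), the second de novo enzyme, was at 4.55 and 4.15 CPM in the young and at 4.92 and 4.23 CPM in the aged libraries. The ages overlapped, and with 73 to 98 reads per library the interval of its change was wide (log2 fold change 0.07, 95% interval -0.43 to 0.58, edgeR adjusted p = 0.861). Its sign turned (-0.034) without 79-week replicate 1.

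Within the Dnmt family the balance of reads moved from Dnmt3a towards Dnmt1. Dnmt3a gave 63.0% (exact 95% binomial interval 61.7 to 64.2) and 63.3% (62.1 to 64.4) of the family's reads at 7 weeks. At 79 weeks it gave 58.4% (57.1 to 59.7) and 59.5% (58.3 to 60.6), and neither aged interval reached a young one. These intervals hold counting error only. Over all genes with enough reads, libraries of an age differed by more than that. The chi-square per degree of freedom was 6.45 at 7 weeks and 18.5 at 79 weeks. The 79-week value includes choroid plexus genes such as Ttr, with 97720 and 50 reads in replicates 1 and 2, so it does not describe the Dnmt genes alone. Dnmt1 gave 35.8% and 35.5% at 7 weeks and 39.9% and 39.1% at 79 weeks, and Dnmt3b between 1.22% and 1.68% in each library. The difference in the Dnmt3a share was -4.20 percentage points, larger than the spread within either age (SD 0.22 and 0.77). A two-sided exact permutation test of 2 against 2 libraries gave p = 0.333, the smallest it can give, here and for each other family share below. Summed over the 3 enzymes, the level went from 352 ± 17.7 to 292 ± 2.48 CPM. The shares are of reads and not per transcript length, which the files do not give, so they do not rank the enzymes by molecules.

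Uhrf1 (ENSMUSG00000001228, chromosome 17) was close to the limit of detection in adult cerebellum. It had 7 and 24 reads at 7 weeks and 8 and 9 at 79 weeks. The libraries other than 7-week replicate 2 lay together, at 0.44 CPM (exact 95% Poisson interval 0.18 to 0.90) in 7-week replicate 1, and at 0.41 (0.18 to 0.82) and 0.39 CPM (0.18 to 0.74) at 79 weeks. Replicate 2 of the young age stood apart at 1.16 CPM (0.74 to 1.72). The gene did not pass the low-count filter, and tested without that filter it was not called (log2 fold change -1.01, edgeR adjusted p = 0.32). The proliferation genes Mki67 and Top2a were chosen after their values were seen. They had 14 and 14 reads in 7-week replicate 1, and 12 and 15 in replicate 2. At 79 weeks Mki67 had 6 and 10 reads and Top2a 5 and 7, and neither was called. Mcm6, a helicase subunit gene of replication, had 67 and 109 reads at 7 weeks and 168 and 201 at 79 weeks. It was called higher. Among the 12 tested replication and proliferation genes 1 was called higher and 1 lower. The 14 genes of that list summed to 90.9 and 90.7 CPM at 7 weeks and to 105 and 106 CPM at 79 weeks.

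**Figure D2:**
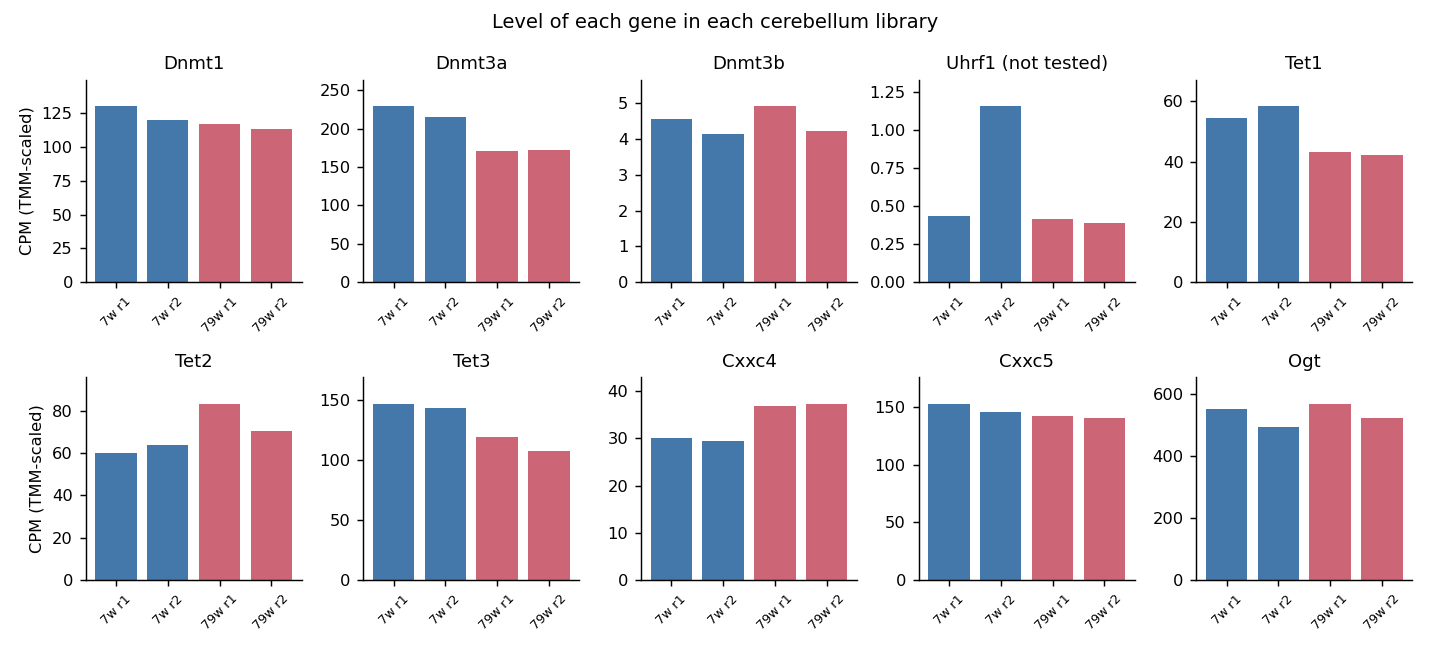
CPM (TMM-scaled) of each of the 10 genes in each library, with 7 weeks in blue, 79 weeks in red, and a separate scale from 0 for each gene. The 79-week bars lie below the 7-week bars for Dnmt3a, Tet1 and Tet3 and, by less, for Dnmt1 and Cxxc5, and above them for Tet2 and Cxxc4, while Uhrf1 is high in 7-week replicate 2 only.

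Tet1 (ENSMUSG00000047146, chromosome 10), a dioxygenase that can carry its own CXXC domain, was at 54.6 and 58.4 CPM at 7 weeks and at 43.0 and 42.3 CPM at 79 weeks. The 79-week libraries were nearly equal and lay below the 7-week ones. It fell by 0.41 on the log2 scale (SE 0.07, 95% interval -0.58 to -0.23, edgeR adjusted p = 0.0193). Tet3 (ENSMUSG00000034832, chromosome 6), the other dioxygenase that can carry such a domain, was at 146.6 and 142.7 CPM in the young and at 119.1 and 107.0 CPM in the aged libraries. The aged libraries spread more than the young ones and did not reach them. Tet3 fell by 0.36 on the log2 scale (SE 0.06, 95% interval -0.50 to -0.21, edgeR adjusted p = 0.0188). Both calls ended when either 7-week library was left out: Tet1 was at -0.46 and -0.36 (adjusted p = 0.124 and 0.12) without 7-week replicates 1 and 2, and Tet3 at -0.34 and -0.38 (adjusted p = 0.168 and 0.0968).

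Tet2 (ENSMUSG00000040943, chromosome 3), the dioxygenase without a CXXC domain, was the Tet gene that stood higher in aged cerebellum. It was at 60.1 and 64.0 CPM at 7 weeks and at 83.3 and 70.6 CPM at 79 weeks. The ages did not overlap, but the aged libraries lay further from each other than the lower of them lay from the young ones. The log2 fold change was 0.31 (SE 0.09, 95% interval 0.10 to 0.52) and missed the threshold in edgeR (adjusted p = 0.0763, unadjusted p = 0.00999). The higher of these was the library with the raised choroid plexus markers, 79-week replicate 1. Without that library the fold change was 0.19 (adjusted p = 0.241), and without 79-week replicate 2 it was 0.42 and called (adjusted p = 0.00243). Robust dispersion in edgeR also called it (adjusted p = 0.0476), as did the fit on unfiltered genes (adjusted p = 0.000905). Of the 13 alternatives tried, these 3 called Tet2 and 10 did not, among them DESeq2 (adjusted p = 0.065) and limma-voom (adjusted p = 0.0935).

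The widest difference in family composition was in the Tet family, though the families were not tested against each other. Tet2 gave 23.0% (exact 95% binomial interval 21.7 to 24.3) and 24.1% (23.0 to 25.3) of the family's reads at 7 weeks. At 79 weeks it gave 33.9% (32.6 to 35.3) and 32.1% (30.8 to 33.4), a difference of 9.46 percentage points. Tet3 went from 56.1% and 53.8% to 48.5% and 48.7%, and Tet1 from 20.9% and 22.0% to 17.5% and 19.2%. In none of the 3 genes did the ages overlap. Without each library in turn the difference in the Tet2 share lay between 8.54 and 10.4 points, and 8.54 was the value without 79-week replicate 1. The level summed over the 3 genes went from 263 ± 2.78 to 233 ± 18.1 CPM.

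**Figure D3:**
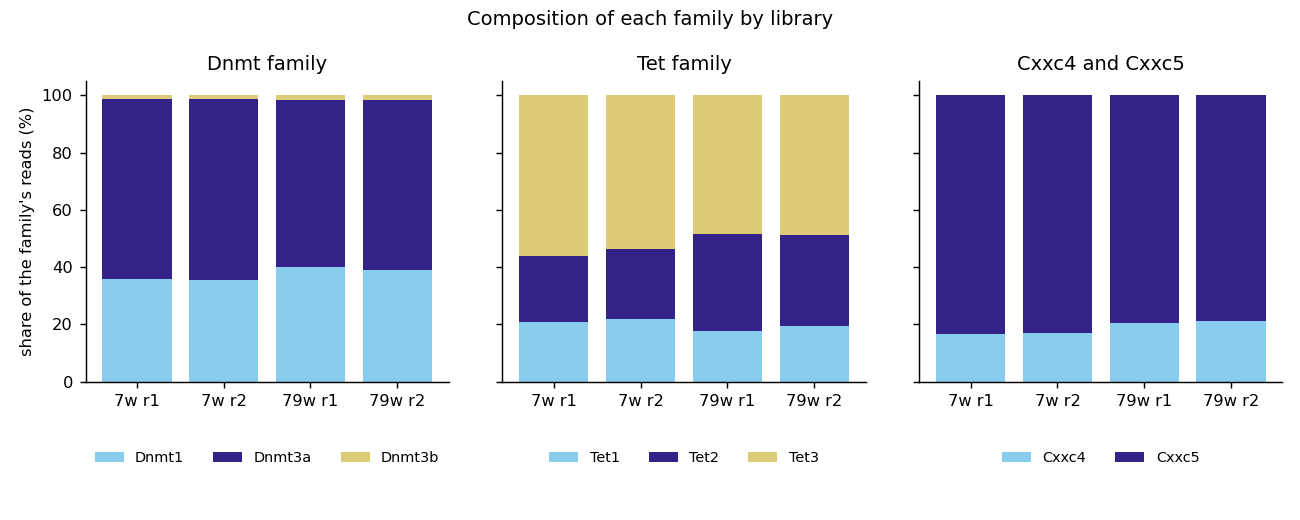
Share of the reads of each family, in percent, taken by each gene in each library; bars sum to 100% of the family's reads and are not scaled by transcript length. The Tet2 segment covers 23.0% and 24.1% at 7 weeks and 33.9% and 32.1% at 79 weeks, and Cxxc4 covers 16.4% and 16.8%, then 20.5% and 21.0%.

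Ratios within a library showed which genes moved apart. The log2 ratio of Tet2 to Tet3 was -1.29 and -1.16 at 7 weeks and -0.52 and -0.60 at 79 weeks, a difference of 0.66. That of Tet2 to Tet1 differed by 0.71, from 0.14 and 0.13 to 0.95 and 0.74. In contrast, the log2 ratio of Tet1 to Tet3 differed by -0.05 and that of Dnmt3a to Tet3 by -0.01, each with ages that overlapped or differed by less than the spread within an age (SD 0.04 to 0.12). Of 9 such ratios compared between ages, each exact two-sided permutation p was 0.333 or higher, and 0.6 or higher after Benjamini-Hochberg adjustment, since 2 against 2 libraries cannot give less than 0.333.

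Dnmt3a, Tet1 and Tet3 were lower beside markers of several cell types, among them granule neurons, the most numerous neurons of the cerebellum. The 8 granule neuron markers summed to 6337 and 6151 CPM at 7 weeks and to 5006 and 4757 CPM at 79 weeks. Their fitted log2 fold changes ran from -0.57 to -0.20 with a median of -0.40, a range that holds those of the 3 enzymes. That was not particular to granule neurons. The 8 oligodendrocyte markers ran from -0.91 to -0.28 (median -0.52, with 3 called lower), and their sum went from 6081 and 5696 to 3664 and 5160 CPM. The 8 Purkinje cell markers ran from -0.53 to 0.12 (median -0.23), and their sum went from 10554 and 10482 to 8571 and 8805 CPM. Markers of other types did not all fall. Of 8 Bergmann glia and astrocyte markers 2 were called higher and 1 lower (median -0.13). Of 6 oligodendrocyte precursor markers 0 were called higher and 2 lower (median -0.12). Of 7 endothelial cell and pericyte markers 0 were called (median 0.12), and the 8 microglial markers ran from 0.52 to 1.40. Gabra6, which encodes a GABA receptor subunit of granule neurons, went from 888.2 and 869.0 to 591.3 and 591.5 CPM. It had the largest fall of the 8 granule neuron markers (log2 fold change -0.57). Relative to the granule neuron marker sum, the log2 level of Dnmt3a was -4.79 and -4.84 at 7 weeks and -4.87 and -4.78 at 79 weeks. On that scale the mean difference between ages was -0.01 for Dnmt3a, -0.05 for Tet1 and -0.002 for Tet3. The ages overlapped for all 3. Only these 3 genes, already called lower, were set against this sum, which itself fell. Small differences therefore follow from the falls given above and test nothing. No such ratio was taken to the marker sums of other cell types. In bulk tissue, fewer cells of a type and less RNA per cell cannot be told apart, and the part of the markers in the falls was not tested. Without 7-week replicate 1, 0 granule markers were called, and without replicate 2 of that age 3 were called lower.

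**Figure D4:**
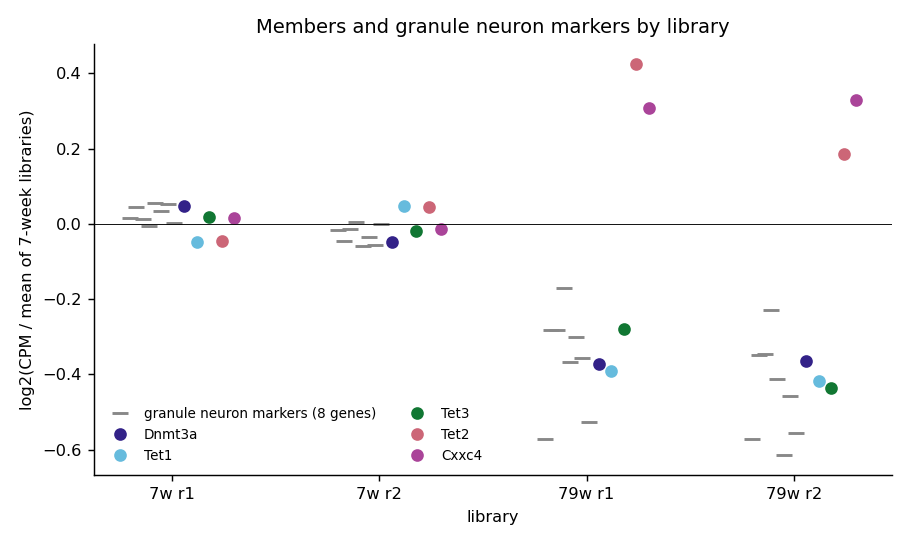
Log2 of each gene's CPM over its mean in the 7-week libraries, by library (order of libraries within an age has no meaning), for Dnmt3a, Tet1, Tet3, Tet2 and Cxxc4 (points) and 8 granule neuron markers (grey dashes). At 79 weeks Dnmt3a, Tet1 and Tet3 lie among the granule markers below 0, and Tet2 and Cxxc4 lie above 0.

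Cxxc4 (ENSMUSG00000044365, chromosome 3), a CXXC protein that binds Tet2 and is also known as Idax, was at 30.0 and 29.4 CPM at 7 weeks and at 36.8 and 37.3 CPM at 79 weeks. Libraries of an age differed by less than 1 CPM, a small spread against the gap between ages. It rose 1.25-fold (log2 fold change 0.32, SE 0.08, 95% interval 0.14 to 0.50, edgeR adjusted p = 0.0478), close to the threshold. The call ended without any one library, with fold changes of 0.30 to 0.33 (adjusted p = 0.0576 to 0.213), in DESeq2 (adjusted p = 0.136) and with the replicate number as a block (adjusted p = 0.0603). Its sign was the same in all 13 alternatives tried. Microglial markers rose beside it, their sum going from 120 and 134 to 208 and 259 CPM, and their part in this result was not tested. With either 7-week library left out, 0 of the 8 microglial markers were called.

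Cxxc5 (ENSMUSG00000046668), the related CXXC protein, was at 152.7 and 145.9 CPM at 7 weeks and at 142.5 and 140.3 CPM at 79 weeks. Its change of -0.08 on the log2 scale did not pass the test (95% interval -0.20 to 0.04, edgeR adjusted p = 0.37). Of the reads of the pair, Cxxc4 took 16.4% (exact 95% binomial interval 15.1 to 17.8) and 16.8% (15.6 to 18.0) at 7 weeks, and 20.5% (19.2 to 21.9) and 21.0% (19.8 to 22.3) at 79 weeks. That share differed by 4.16 percentage points between ages, while the summed level of the pair stayed near 179 ± 5.21 and 178 ± 1.24 CPM. The log2 ratio of Cxxc4 to Tet2, the enzyme it binds, was -1.06 ± 0.08 and -1.05 ± 0.18.

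Ogt (ENSMUSG00000034160, on the X chromosome), the only enzyme that adds O-GlcNAc to nuclear proteins, was at 552.2 and 493.2 CPM in the young and at 569.4 and 523.8 CPM in the aged libraries. The ages overlapped, and the change was small against the spread (log2 fold change 0.06, 95% interval -0.11 to 0.24, edgeR adjusted p = 0.637). It was -0.018 without 7-week replicate 2. The interval excludes a rise above 1.18-fold and a fall below 0.924 of the young level. The log2 ratio of Ogt to Tet3 was 1.91 and 1.79 at 7 weeks and 2.26 and 2.29 at 79 weeks.

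Each called gene had many others with nearly the same profile over the 4 libraries. Likeness was measured as the root mean square difference of centred log2(CPM + 0.5), over 10089 named genes of at least 10 CPM. Closest to Dnmt3a were Kdm7a (0.006), a histone demethylase gene, Atp2a3 (0.007), a calcium pump gene, and Lpgat1 (0.008), and 204 genes lay within 0.05. Closest to Tet1 were Clmn (0.013), Nell1 (0.015) and Gphn (0.017), the last encoding the scaffold gephyrin of inhibitory synapses, with 84 genes within 0.05. Closest to Tet3 were Fer (0.011), a tyrosine kinase gene, Zfp46 (0.018) and 4921524J17Rik (0.019), with 86 within 0.05. Closest to Cxxc4 were the netrin receptor gene Unc5a (0.001), the peroxisomal hydroxylase gene Phyh (0.004) and Rrbp1 (0.006), with 152 within 0.05.

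Genes around these enzymes were read in 9 lists, against a background of 637 higher and 715 lower of 15292 tested genes with a median log2 fold change of 0.01. Partners of Dnmt1, Dnmt3a and Uhrf1 had 0 of 16 tested members called higher and 1 called lower, with a median of 0.01. The one called lower was Zfp57, a zinc finger gene that keeps methylation at imprinted loci. It was at 8.29 and 9.65 CPM at 7 weeks and at 4.04 and 3.63 CPM at 79 weeks (log2 fold change -1.23, SE 0.19, edgeR adjusted p = 0.013). Of 7 other CXXC genes 0 were called (median 0.05), and the histone methyltransferase gene Kmt2a went from 397 and 396 to 462 and 449 CPM (edgeR adjusted p = 0.0644). Its relative Kmt2b was at 172 and 164, then 181 and 167 CPM. Of the 13 alternatives tried, 5 called Kmt2a, among them DESeq2 (adjusted p = 0.0228), and 8 did not.

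Among readers of methylated CpG, 1 of 9 was called higher and 0 lower, with a median of 0.05. This was Mbd6, from 117.2 and 113.2 to 146.4 and 137.1 CPM (log2 fold change 0.30, SE 0.06, edgeR adjusted p = 0.0218), a call that ended when 79-week replicate 1 was left out (adjusted p = 0.0527), and RefSeq places Dctn2 and Ddit3 over part of it. Genes that remove oxidised cytosines and repair the gap had 0 of 14 called higher and 1 called lower, with a median of 0.02. Their log2 fold changes ran from -0.35 in Tdg (edgeR adjusted p = 0.0638) to 0.52 in Neil2, which had 9 to 20 reads per library. Parp1, which senses strand breaks, fell from 110.0 and 109.8 to 89.2 and 89.6 CPM (log2 fold change -0.30, SE 0.05, edgeR adjusted p = 0.0184). In the O-GlcNAc list 0 of 13 were called (median 0.03). Mgea5, which encodes the enzyme that removes O-GlcNAc, was at 164.4 and 164.3, then 162.8 and 167.5 CPM, and the Ogt partner gene Hcfc1 at 216 and 218, then 197 and 194 CPM (edgeR adjusted p = 0.0876).

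S-adenosylmethionine is the methyl donor of the Dnmt enzymes. In the list on its supply 3 of 15 genes were called higher and 0 lower, with a median of 0.01. Not called were the synthase genes Mat2a (log2 fold change -0.12, edgeR adjusted p = 0.169) and Mat2b (-0.23, edgeR adjusted p = 0.0531). Gnmt, whose enzyme uses up S-adenosylmethionine, went from 4.30 and 4.39 to 8.18 and 9.07 CPM (log2 fold change 0.99, SE 0.18, edgeR adjusted p = 0.0191). Mthfd1, of folate metabolism, rose 1.26-fold (edgeR adjusted p = 0.0242). Genes that supply or consume the Tet cosubstrate 2-oxoglutarate, its inhibitors and ascorbate had 0 of 13 called (median -0.03), Sdha standing at 400 and 412, then 420 and 442 CPM, and Ogdh at 384 and 372, then 332 and 345 CPM. Of 5 other dioxygenase genes that act on nucleic acids 0 were called (median 0.05), with Fto at 183 and 188, then 194 and 190 CPM and Alkbh5 at 94.5 and 99.0, then 99.3 and 97.0 CPM.

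Replication and proliferation genes, with which Dnmt1 and Uhrf1 are co-expressed in dividing cells, had 1 of 12 called higher and 1 called lower (median 0.10). The helicase subunit gene Mcm6 rose from 4.17 and 5.26 to 8.70 and 8.69 CPM (edgeR adjusted p = 0.033). E2f1, a transcription factor gene of the cell cycle, fell from 4.80 and 4.44 to 1.66 and 0.95 CPM (edgeR adjusted p = 0.0177), and RefSeq places Necab3 over part of it. When either 7-week library was left out, none of the 8 list genes called here passed the test.

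**Figure D5:**
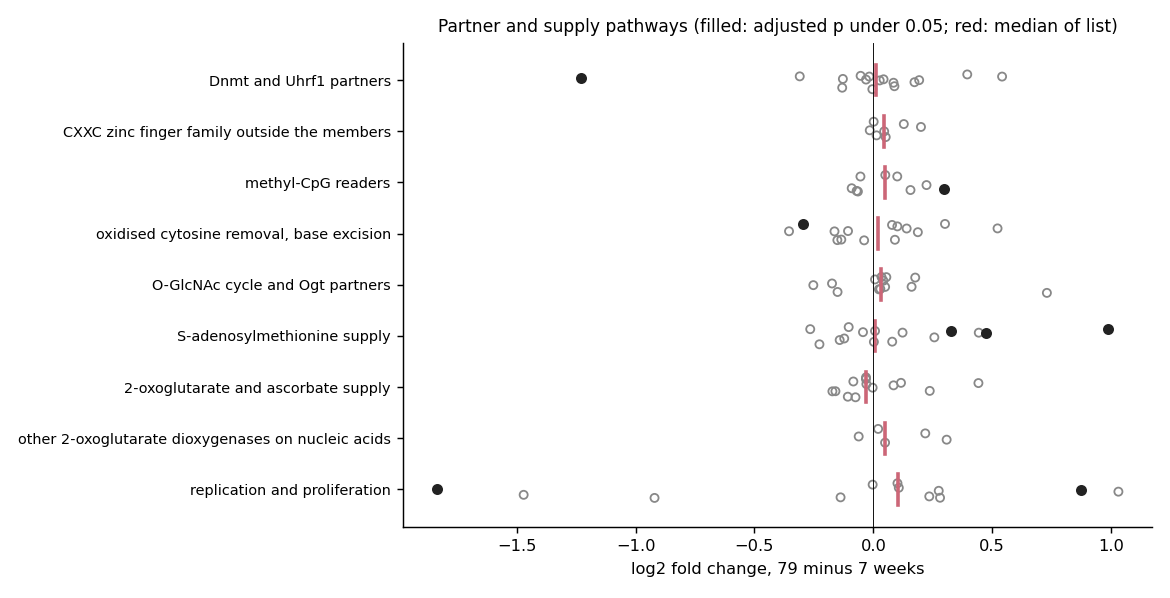
Log2 fold change, 79 minus 7 weeks, of each tested gene in the 9 lists, with called genes filled and the median of each list in red. Medians lie between -0.03 and 0.10, and 8 genes passed an adjusted p of 0.05, of which Zfp57 and E2f1 lie below -1.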

How the data were processed

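Per the labels, libraries were made from Trizol RNA with a Universal Plus mRNA-Seq kit. The authors deposited raw counts of reads per Ensembl gene, made with cutadapt, STAR and HTSeq on build mm9, per the submitters' processing notes. The sources used here give no tool version, no annotation release and no strand setting. HTSeq's summary lines were taken off first.

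Analyses used R 4.3.3. The low-count filter was filterByExpr of edgeR 4.0.16, with a minimum count of 10 and a minimum total of 15. Counts were scaled by TMM (factors 0.981 to 1.02) and compared between ages by the quasi-likelihood F test with no covariates. Standard errors were derived from the F statistic. Alternatives used DESeq2 1.42.0, limma-voom (limma 3.58.1), other scalings and filters, robust dispersion, a replicate block, and fits with 1 library left out, where the lone library of an age is assumed to vary like the others.

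The genes and the 9 lists were chosen with earlier results of these data known. Of each list, up to 3 called genes by smallest p, or else the 2 most abundant, are named, except 1 gene that is not reported here. Mki67, Top2a, Gabra6, Ttr, Tdg, Neil2, Mat2a and Mat2b were named after their values were seen.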

Additional observations from a re-analysis of the deposited data

How the results depend on the processing

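Of the 9 tested genes, Dnmt1, Dnmt3a, Tet1, Tet2, Tet3, Cxxc4 and Cxxc5 kept their sign in all 13 alternatives. The number of these enzyme and partner genes called was 3 to 5 under other scalings, filters and tools. It was 3 with the replicate block, where Cxxc4 was lost, against 4 without. Same-numbered libraries deviated weakly in opposite ways (correlation -0.11). A block with crossed numbers, added after the data were seen, called 5 of the enzyme and partner genes and 2014 genes in all. Replicate numbers alone do not state a pairing, and with 2 libraries per age these values cannot show whether there is one. With the replicate block 1396 genes were called. Without the low-count filter 3051 genes and 15 genes of the 9 pathway lists were called, in place of 1352 and 8, and with robust dispersion 14 pathway genes were. With library size as the only scaling, 901 genes were higher and 484 lower, against 637 and 715.

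Leaving out 1 library gave 0 to 2425 called genes, 0 to 4 called enzyme and partner genes and 0 to 11 of the pathway lists. All 3 counts were 0 without 7-week replicate 1, where 4 enzyme and partner genes had an unadjusted p under 0.05 in edgeR, and 1 of these genes, Dnmt3a, was called without 7-week replicate 2. In those fits the log2 fold change ran from -0.034 (without 79-week replicate 1) to 0.18 for Dnmt3b and from -0.018 (without 7-week replicate 2) to 0.14 for Ogt. Of the uncalled pathway genes, that of Kmt2b ran from -0.0069 to 0.10, of Mgea5 from -0.019 to 0.028 and of Alkbh5 from -0.017 to 0.052. The cause was not tested. Shares per transcript length were not run, since no length was at hand. The 4 libraries limit every permutation test, and Uhrf1 is limited by depth.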
